A study of Mus musculus with 6 samples.

Results

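The genes described here are 10 genes of oxygen sensing and of the transcriptional response to low oxygen, measured in differentiating mouse osteoblasts with and without an inhibitor of DNA-dependent protein kinase. They were chosen by symbol: the hypoxia-inducible factor (HIF) subunits Hif1a and Epas1, the oxygen sensors Egln1, Egln2, Egln3 and Hif1an, the degradation gene Vhl, and the targets Vegfa, Bnip3 and Ndrg1. Each gene is represented by a probe set annotated to its symbol alone, the brightest on average where there were several. All 10 genes were measured, of 22180 genes in all. The samples were MC3T3-E1 cells, a pre-osteoblast line from mouse calvaria, grown to confluence and then kept for 14 days with ascorbic acid at 50 µg/ml and β-glycerophosphate at 10 mM to drive osteoblast differentiation. In 3 samples the medium held 1 µM NU7441, an inhibitor of the kinase's catalytic subunit, and in 3 its solvent, DMSO. Both groups are of the same cell line, and the labels name no low-oxygen culture in either. Whether the replicates were separate cultures is not stated, and p-values therefore cover only the spread between these arrays, which may be technical.

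HIF is a pair of proteins, an oxygen-regulated alpha subunit (HIF-1α from Hif1a, HIF-2α from Epas1) and the constant partner ARNT. With oxygen present, the prolyl hydroxylases encoded by Egln1, Egln2 and Egln3 mark the alpha subunit, the von Hippel-Lindau protein binds the mark, and the subunit is destroyed. Hif1an encodes a further hydroxylase, which blocks the subunit's contact with coactivators. When oxygen or the hydroxylases' iron and 2-oxoglutarate run short, the alpha subunit accumulates and switches on genes for glucose use, vessel growth and mitochondrial turnover, among them Vegfa, Bnip3, Ndrg1, and also Egln1 and Egln3, which thereby act as feedback. In osteoblasts this pathway links bone formation to vessel growth through VEGF. The alpha subunits are regulated mainly as proteins, which these arrays do not measure.

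HIF binds a short core motif, ACGTG or GCGTG, which was looked for on both strands of RefSeq promoter windows of the GRCm38.p6 build, from 250 bases before to 50 bases after a transcription start. Windows were matched for 8 of the 10 genes, and Epas1 and Ndrg1 were not matched. The windows of the 3 prolyl hydroxylase genes and of Bnip3 are shown because these 3 related hydroxylase genes had unlike differences in the arrays, and Bnip3 is a target with several motifs. Each runs 5′ to 3′ along the gene's strand, and capitals mark the motif on either strand, so CACGT and CACGC are the motif read from the opposite strand. For Egln2 the window of its start farther upstream is given.
Egln1 (chr8:124949205-124949504, minus strand): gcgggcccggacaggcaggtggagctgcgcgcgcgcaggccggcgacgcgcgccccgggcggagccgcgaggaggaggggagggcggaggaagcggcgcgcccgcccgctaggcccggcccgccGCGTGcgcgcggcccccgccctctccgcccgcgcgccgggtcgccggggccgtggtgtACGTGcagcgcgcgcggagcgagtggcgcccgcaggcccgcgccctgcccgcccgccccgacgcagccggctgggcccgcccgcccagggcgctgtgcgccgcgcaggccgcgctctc
Egln2 (chr7:27166753-27167052, minus strand): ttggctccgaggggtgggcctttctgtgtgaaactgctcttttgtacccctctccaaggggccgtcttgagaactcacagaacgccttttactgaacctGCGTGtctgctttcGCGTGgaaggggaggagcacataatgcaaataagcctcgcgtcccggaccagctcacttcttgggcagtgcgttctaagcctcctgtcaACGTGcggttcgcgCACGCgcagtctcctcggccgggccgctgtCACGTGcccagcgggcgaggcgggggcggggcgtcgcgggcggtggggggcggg
Egln3 (chr12:54203825-54204124, minus strand): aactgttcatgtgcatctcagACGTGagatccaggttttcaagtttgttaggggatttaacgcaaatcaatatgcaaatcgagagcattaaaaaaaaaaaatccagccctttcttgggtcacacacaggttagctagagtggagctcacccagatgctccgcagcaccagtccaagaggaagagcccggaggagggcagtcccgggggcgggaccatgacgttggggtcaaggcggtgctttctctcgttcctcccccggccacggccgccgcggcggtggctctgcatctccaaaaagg
Bnip3 (chr7:138909457-138909756, minus strand): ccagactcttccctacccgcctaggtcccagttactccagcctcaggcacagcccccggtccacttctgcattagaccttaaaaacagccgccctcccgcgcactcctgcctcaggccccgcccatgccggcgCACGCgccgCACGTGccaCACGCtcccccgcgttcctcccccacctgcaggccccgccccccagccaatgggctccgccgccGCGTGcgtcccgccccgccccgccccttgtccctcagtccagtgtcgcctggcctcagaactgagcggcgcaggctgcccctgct
The Bnip3 window held ACGTG at 2 positions and GCGTG at 3, and that of Egln1 held each of them 1 time. The Egln3 window held ACGTG 1 time, and that of Egln2 held both motifs 3 times each. The palindrome CACGTG, which is also the E-box bound by other factors, is counted on both strands and gives 2 of the ACGTG positions in Bnip3 and 2 in Egln2. Neither motif was in the windows of Hif1an and Vhl or in the first of 2 Vegfa windows, whereas the second Vegfa window, at a start farther downstream, held both. Of 32851 promoter windows of this length, 19.6% held ACGTG and 43.8% held either motif. A match describes letters and is not a binding site, and the window misses motifs that lie elsewhere.

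**Figure D1:**
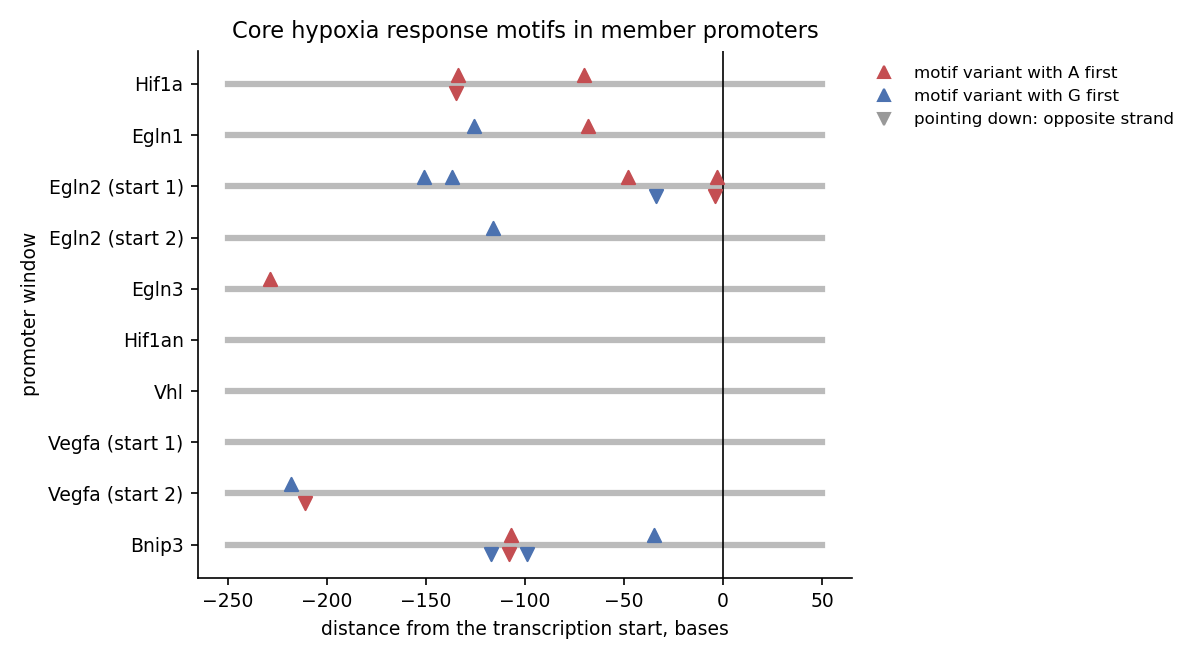
Positions of the core HIF motif in the promoter windows of 8 member genes, by distance in bases from the transcription start (vertical line). Triangles pointing up lie on the gene's strand and those pointing down on the opposite strand. Egln2 start 1 and Bnip3 carry the most matches, and Hif1an, Vhl and Vegfa start 1 carry none.

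NU7441 arrays had a lower mean signal for the 3 targets and for 2 of the 3 prolyl hydroxylases, while the factors, Egln2, Hif1an and Vhl differed less. The log2 difference, NU7441 minus DMSO, was -0.40 for Vegfa, -0.39 for Ndrg1, -0.38 for Bnip3, -0.42 for Egln1 and -0.69 for Egln3. It lay between -0.16 and 0.07 for Hif1a, Epas1, Egln2, Hif1an and Vhl. In RNA of whole cultures, fewer cells that express a gene and less of its RNA per cell cannot be told apart. None of the 10 passed the test over all genes: limma called 0 of them at an adjusted p under 0.05, and 0% of all genes were called. At an unadjusted p under 0.05 there were 4 of the 10, all lower with NU7441 (Vegfa, Egln1, Ndrg1 and Bnip3), where 3.3% of all genes were lower at that level, and 0 were higher, where 3.49% of all genes were. With same-numbered arrays as pairs, an intensity trend of the variance and a robust prior, limma called 4 members, Vegfa (adjusted p = 0.0160), Ndrg1 (0.0167), Egln1 (0.0264) and Egln3 (0.0268), all lower, where 0.451% of all genes were called and 0.275% were called lower. No label states these pairs, which were taken from correlations between these same arrays. With pairs alone limma called 0 members and 0% of all genes. At an unadjusted p under 0.05, 5 members were lower with pairs alone, where 4.66% of all genes were, and 6 with pairs, trend and robust prior, where 6.66% were.

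**Figure D2:**
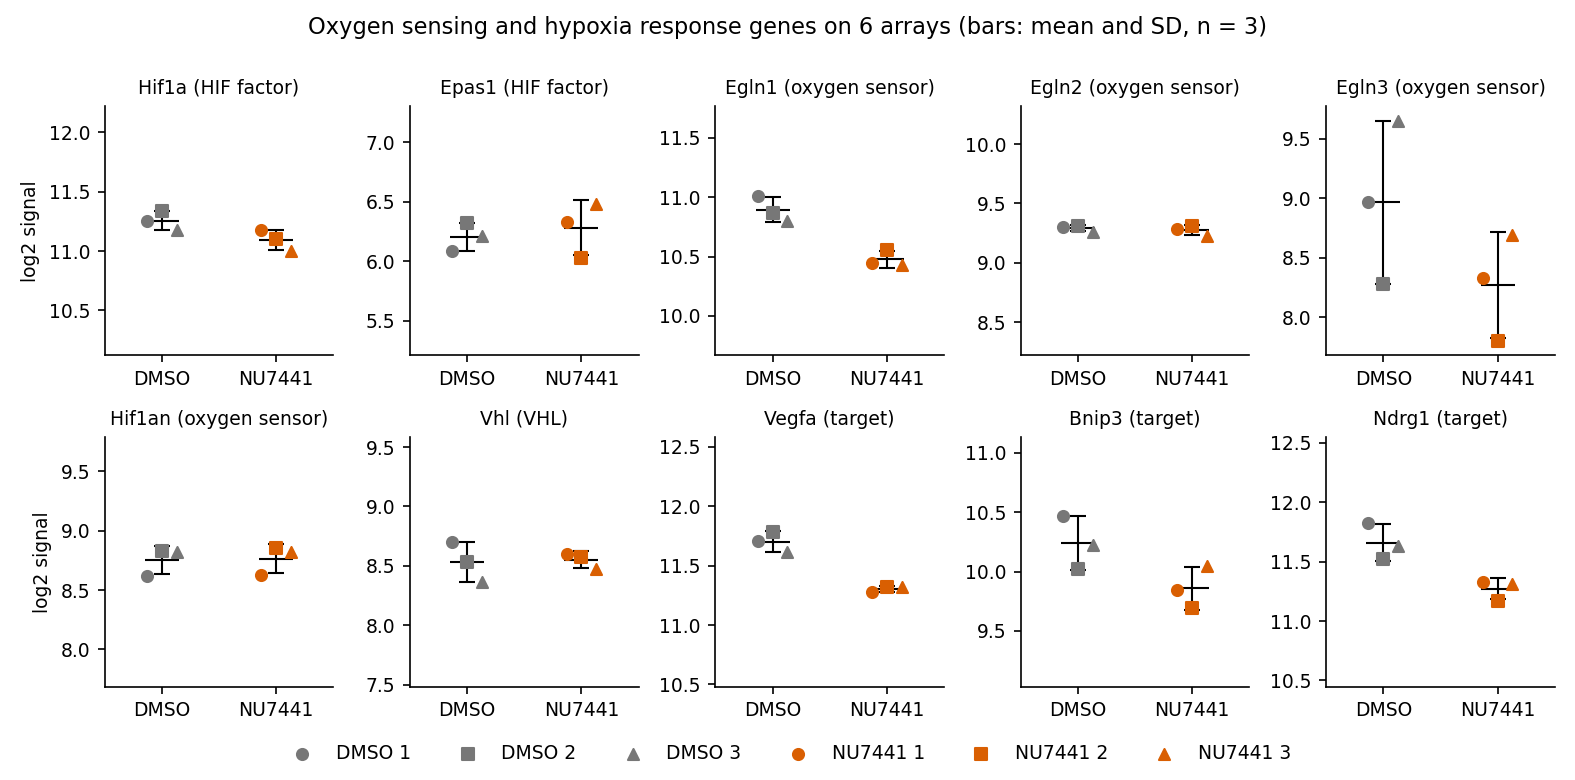
Log2 signal of each of the 10 genes on the 6 arrays, with symbols for the replicate numbers and bars for the mean and SD of 3 arrays; all panels span the same log2 range. Egln1, Vegfa and Ndrg1 have all 3 NU7441 arrays below all 3 DMSO arrays with a wide gap, and Egln3 is low in number 2 and high in number 3 of both groups.

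Of the factors, Hif1a, the alpha subunit present in most cells, was at 11.25, 11.34 and 11.18 in DMSO 1 to 3 and at 11.17, 11.10 and 11.00 in NU7441 1 to 3 (log2 signal). The NU7441 values lay just below the DMSO values, with a gap far smaller than the spread within either group. The difference was -0.16 (SE 0.08, 95% interval -0.34 to 0.02, limma adjusted p = 0.762). A second Hif1a probe set, dimmer by far, differed by 0.08 (SE 0.10), and another that also matches the pseudogene S100a11-ps by -0.02 (SE 0.08). Epas1, the alpha subunit known from endothelium and from iron and erythropoietin control, was at 6.09, 6.32 and 6.21 in DMSO and at 6.33, 6.03 and 6.48 in NU7441. The groups overlapped, and the difference was 0.07 (SE 0.13, interval -0.22 to 0.37). Epas1 lay near the arrays' medians of 6.38 to 6.42 on the log2 scale, and how far it stood above background was not analysed here.

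Among the sensors, Egln1 (PHD2), the main prolyl hydroxylase of HIF-1α in normal oxygen, was at 11.01, 10.87 and 10.80 in DMSO and at 10.45, 10.55 and 10.43 in NU7441. Every NU7441 array lay below every DMSO array. The difference was -0.42 (SE 0.08, interval -0.60 to -0.23, unadjusted p = 0.00110, limma adjusted p = 0.598), a signal 0.749 times that of DMSO. Egln3 (PHD3), the prolyl hydroxylase most strongly induced by HIF, was at 8.97, 8.28 and 9.65 in DMSO and at 8.33, 7.80 and 8.69 in NU7441. Its groups overlapped, with number 2 lowest and number 3 highest in both, and within each number NU7441 was the lower, by 0.64, 0.48 and 0.96. The difference was -0.69, with an SE of 0.36 without pairs and 0.11 with pairs (limma adjusted p = 0.768 and 0.383). It was -0.35 without DMSO 3, -0.46 without NU7441 2 and -1.04 without DMSO 2.

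Egln2 (PHD1), the prolyl hydroxylase that HIF does not commonly induce, was at 9.301, 9.310 and 9.261 in DMSO and at 9.286, 9.308 and 9.229 in NU7441. These 6 values lay within 0.08 of each other, the tightest of the 10 genes. The difference was -0.02 (SE 0.06), and its 95% interval of -0.16 to 0.13 lies outside the interval of Egln1. Within arrays, Egln1 minus Egln2 differed between the groups by -0.40 log2 units, a description of a pair chosen with its values known. Hif1an, the asparaginyl hydroxylase FIH, was at 8.62, 8.83 and 8.82 in DMSO and at 8.62, 8.85 and 8.82 in NU7441. The same-numbered arrays were nearly identical, and the difference was 0.01 (SE 0.09, interval -0.21 to 0.23). Vhl, the substrate-binding part of the ubiquitin ligase for HIF alpha subunits, was at 8.70, 8.53 and 8.37 in DMSO and at 8.60, 8.58 and 8.47 in NU7441. Its NU7441 values fell inside the DMSO range, with a difference of 0.02 (SE 0.10, interval -0.21 to 0.25). The signs of the small differences of Epas1, Egln2, Hif1an and Vhl turned under at least 1 other setting each.

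Of the targets, Vegfa, the growth factor that draws vessels into bone, was at 11.71, 11.79 and 11.61 in DMSO and at 11.28, 11.32 and 11.32 in NU7441. The groups lay well apart, and the NU7441 arrays were within 0.04 of each other. The difference was -0.40 (SE 0.07, interval -0.56 to -0.24, unadjusted p = 6.59e-04, limma adjusted p = 0.598), and Vegfa ranked 20 of all genes by p. Ndrg1, a stress-response gene induced by hypoxia and by differentiation, was at 11.83, 11.53 and 11.63 in DMSO and at 11.33, 11.17 and 11.31 in NU7441. No NU7441 array reached the lowest DMSO array. The difference was -0.39 (SE 0.10, interval -0.62 to -0.17, limma adjusted p = 0.643), and the second Ndrg1 probe set differed by -0.30 (SE 0.13). Bnip3, a mitochondrial outer membrane protein that starts mitophagy, was at 10.47, 10.02 and 10.22 in DMSO and at 9.84, 9.69 and 10.05 in NU7441. NU7441 3 was above DMSO 2, so the groups overlapped, although within each number NU7441 was the lower. The difference was -0.38 (SE 0.14, interval -0.70 to -0.06, limma adjusted p = 0.711), and it was -0.26 without DMSO 1.

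**Figure D3:**
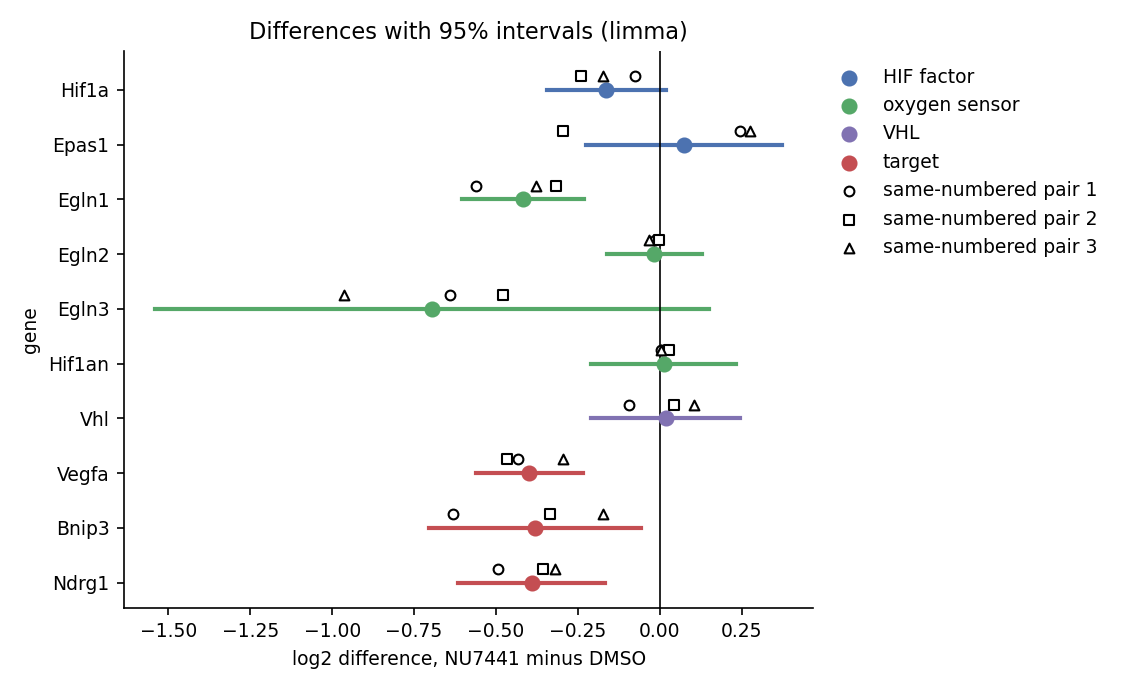
Log2 difference between NU7441 and DMSO for each gene with its 95% interval from limma without pairs, coloured by role, and the 3 same-numbered differences as open symbols. The intervals of Egln1, Vegfa, Bnip3 and Ndrg1 lie below 0, that of Egln3 runs from -1.54 to 0.15, and those of the other 5 genes include 0.

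Set beside each other by role, the 3 targets had a median difference of -0.39 and the 7 factors, sensors and Vhl a median of -0.02, with all genes at 0.00. Egln1 and Egln3 are both sensors and HIF targets. Counted with the targets, they gave a target median of -0.40 over 5 genes, from -0.69 to -0.38, and left a median of 0.01 for the other 5 genes, from -0.16 to 0.07. No p is given for these medians, because the genes were chosen with earlier results known. In each same-numbered pair the 5 target genes had a median below 0, of -0.56, -0.36 and -0.32 in numbers 1 to 3, and the other 5 genes had medians of -0.01, -0.00 and 0.00. With Egln1 and Egln3 kept among the sensors, the 7 factors, sensors and Vhl also had pair medians below 0, of -0.08, -0.24 and -0.03. The 3 targets then had -0.50, -0.36 and -0.30. Against each gene's mean over the 6 arrays, the 5 target genes' median was 0.35, 0.06 and 0.17 in DMSO 1 to 3 and -0.23, -0.30 and -0.15 in NU7441 1 to 3. By this median DMSO 2 was the control array closest to the NU7441 arrays. It was not so for each gene: DMSO 2 was the farthest for Vegfa, and DMSO 3 was closer for Egln1. In the other 5 genes that median stayed between -0.05 and 0.07 on all 6 arrays. Over the 7 factors, sensors and Vhl it was 0.08, 0.07 and 0.00 in DMSO 1 to 3. In NU7441 1 to 3 it was 0.00, -0.07 and -0.05. The flatter values of the 5 genes thus depend on moving Egln1 and Egln3 to the targets. Within arrays, Vegfa minus Hif1a differed between the groups by -0.24, also a description.

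**Figure D4:**
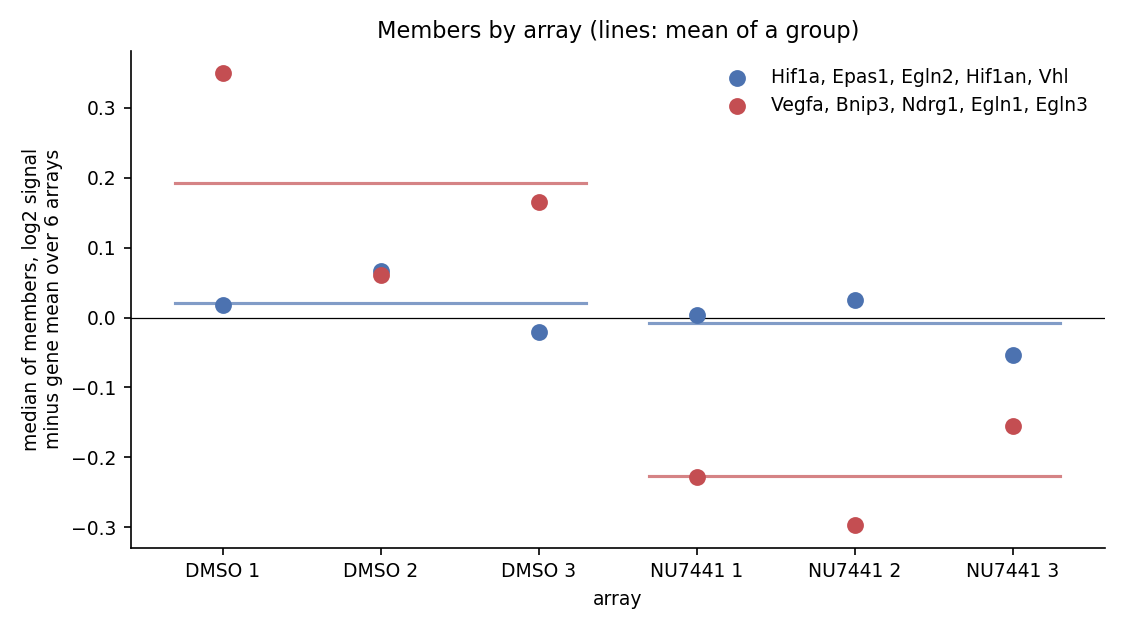
Median over genes of the log2 signal minus each gene's mean over the 6 arrays, per array, for the 5 genes that HIF induces (red) and the other 5 members (blue), with lines at the group means. The red points are above 0 in the 3 DMSO arrays and below 0 in the 3 NU7441 arrays, and the blue points stay near 0 throughout. The sensors Egln1 and Egln3 are counted with the red genes.

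Counts over the 10 genes were as follows. All 3 NU7441 values lay below all 3 DMSO values in 4 genes, Hif1a, Egln1, Vegfa and Ndrg1, and 6.64% of all genes did so. The reverse was seen in 0 of the 10 and in 6.13% of all genes. NU7441 was the lower in every same-numbered pair in 7 genes, all but Epas1, Hif1an and Vhl, where 16.6% of all genes had that pattern, and Egln2 was among the 7 with differences of at most 0.03. NU7441 was the higher in every pair only in Hif1an, by at most 0.03, where 16% of all genes had that pattern. By the root mean square difference of their centred profiles over the 6 arrays, Egln1 and Vegfa were the most alike of the members (0.0731 log2 units), then Bnip3 and Ndrg1 (0.0865). Egln3 and Vhl were the least alike (0.643). Over all named genes, the profiles nearest to Vegfa were those of the lipid transporter gene Abca3 (0.0406), Qpct (0.0462) and the growth factor gene Hbegf (0.0553), with differences of -0.36, -0.33 and -0.36. Nearest to Hif1a were Fasl (0.0125), Bcap29 (0.0201) and Pgam2 (0.0213). Of these, Fasl (5.46 in DMSO, 5.31 in NU7441) and Pgam2 (6.36 and 6.21) were dim. The search ran over 22180 profiles on 6 arrays, with predicted, small RNA and olfactory receptor genes passed over. Near matches therefore occur without any relation.

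Other genes of the pathway were counted in 6 lists by role, with 57 listed HIF targets in 5 of them, of which 49 were measured. Of the 49, 41 were lower with NU7441 and 8 higher, with a median of -0.17, against 48.7% of all genes lower and a median of 0.00. At an unadjusted p under 0.05 there were 17 lower and 1 higher, where 3.3% of all genes were lower and 3.49% higher at that level. None passed over all genes in limma. Of the listed targets named for a small p or an opposite sign, 3 passed with pairs, trend and robust prior. They were Ero1a (limma adjusted p = 0.00467), Hmox1 (0.0157) and Slc2a1 (0.0160), all lower. Of all genes 0.451% were called and 0.275% were called lower. The other listed targets were not counted at an adjusted p in that fit. Without NU7441 2 the 17 became 10, while all genes lower at that level went from 731 to 570.

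In the matrix list all 6 measured genes were lower, with a median of -0.30 and 4 at an unadjusted p under 0.05. Of all genes 48.7% were lower, and at that level 3.3% were lower and 3.49% higher. Ero1a, an oxidase that forms disulfides in the endoplasmic reticulum, was at 11.86, 11.86 and 11.52 in DMSO and at 11.07, 11.28 and 10.96 in NU7441, a difference of -0.64 (SE 0.12). Every NU7441 array lay below every DMSO array. The collagen prolyl hydroxylase P4ha2 differed by -0.39 (SE 0.09), the lysyl hydroxylase Plod1 by -0.39 (SE 0.10) and the crosslinking enzyme Lox by -0.22 (SE 0.09). In the glucose list 14 of 17 genes were lower, with a median of -0.16, and 6 were lower and 1 higher at an unadjusted p under 0.05. The glucose transporter Slc2a1 was at 11.89, 11.70 and 11.88 in DMSO and at 11.39, 11.40 and 11.37 in NU7441, a difference of -0.44 (SE 0.07), which was -0.23 for the mean of its probe sets. The phosphofructokinase Pfkp differed by -0.29 (SE 0.06) and the mutase Pgam1 by -0.25 (SE 0.06). The lactate exporter Slc16a3 went the other way, at 6.28 ± 0.06 in DMSO and 6.51 ± 0.03 in NU7441 (SD, n = 3 each), a difference of 0.23 (SE 0.06) at a dim signal.

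In the mitochondrial list 7 of 8 genes were lower, with a median of -0.21 and 3 at an unadjusted p under 0.05. For this list and the next 2, the shares of all genes were 48.7% lower and 3.3% lower at that level. Fam162a differed by -0.39 (SE 0.12), Higd1a, an assembly factor of the respiratory chain, by -0.33 (SE 0.09) and the mitochondrial protease Lonp1 by -0.26 (SE 0.11), which was -0.14 without DMSO 2. Cox4i2, a hypoxia-induced cytochrome oxidase subunit, differed by 0.11 (SE 0.07). In the vascular, iron and pH list 8 of 11 genes were lower, with a median of -0.19 and 4 at an unadjusted p under 0.05. Hmox1, which degrades heme, differed by -0.67 (SE 0.26), and by -0.39 without DMSO 2. The peptide hormone gene Adm differed by -0.51 (SE 0.18) at a dim signal of 6.46 in DMSO and 5.95 in NU7441. The lipase inhibitor Angptl4 differed by -0.39 (SE 0.11) and the transferrin receptor Tfrc by -0.31 (SE 0.12). The groups of Hmox1, Adm and Tfrc overlapped, although within each number NU7441 was the lower. The carbonic anhydrase Car12 differed by 0.39 (SE 0.73). Its values ran from 6.43 to 8.50 in DMSO and from 6.78 to 9.13 in NU7441, so the groups overlapped widely. Within each number NU7441 was the higher, by 0.36, 0.19 and 0.63, opposite in direction to most listed targets. Limma's adjusted p for Car12 was 0.938 without pairs, 0.487 with pairs alone and 0.188 with pairs, trend and robust prior. Its unpaired difference was unstable, from -0.34 to 1.01 over the fits that each omit 1 array. In the list of chromatin and feedback genes 6 of 7 were lower with a median of -0.07 and 0 at an unadjusted p under 0.05. The histone demethylase Kdm3a differed by -0.23 (SE 0.13), Kdm4b by -0.13 (SE 0.10), the small Maf protein gene Mafk by -0.14 (SE 0.12) and Kdm4c by 0.06 (SE 0.09). Leaving out 1 array moved these values to between -0.36 and -0.14 for Kdm3a, -0.20 and -0.04 for Kdm4b, and -0.26 and -0.04 for Mafk. The list's own median was -0.16 without DMSO 2 and -0.04 without DMSO 1 or DMSO 3, so its place depends on single arrays.

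HIF partners, degradation factors and coactivators, the remaining list, had 10 of 15 measured genes lower with a median of -0.07, and 1 at an unadjusted p under 0.05. That 1 gene was 6.67% of the list, where 3.3% of all genes were lower at that level and 48.7% were lower at any p. Siah1a, an E3 ligase that degrades prolyl hydroxylases, differed by -0.19 (SE 0.07), its relative Siah2 by -0.17 (SE 0.09) and Eloc, which joins VHL to its ligase, by -0.15 (SE 0.06). Hif3a, an inhibitory alpha subunit, differed by 0.21 (SE 0.12) at a dim signal of 5.54 in DMSO and 5.75 in NU7441. Limma's adjusted p was 0.711 or above for every gene of this list. The median of the list was -0.04 without DMSO 2.

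**Figure D5:**
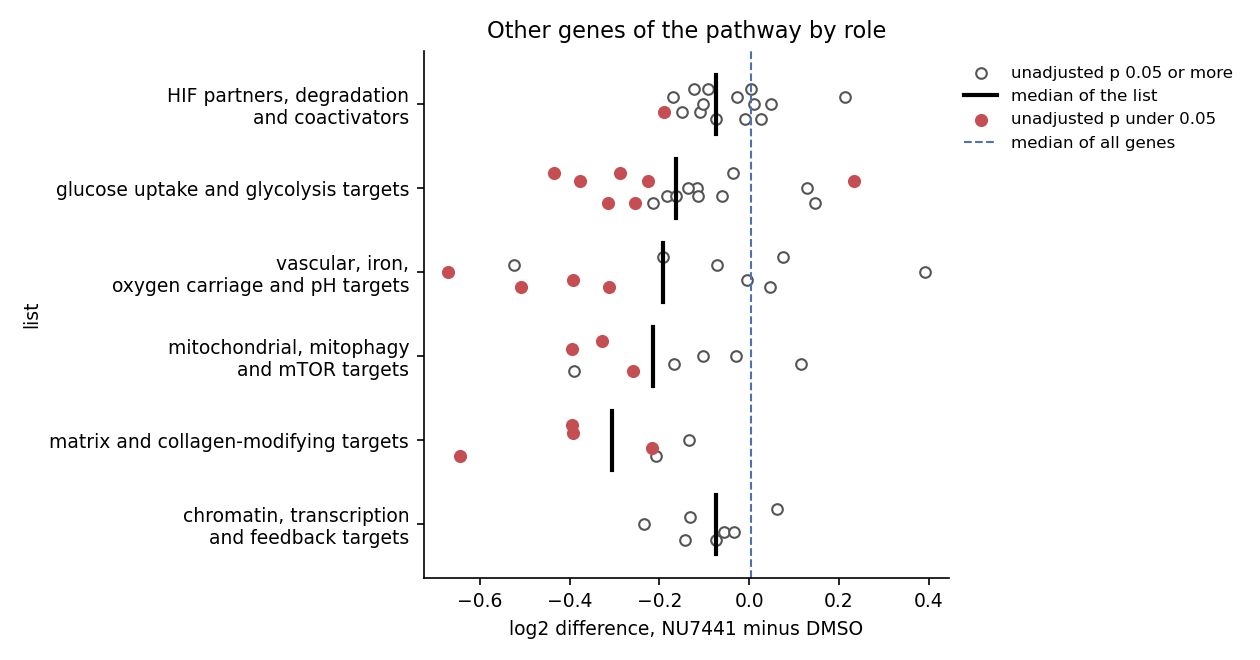
Log2 difference between NU7441 and DMSO for each measured gene of the 6 pathway lists, filled red where the unadjusted limma p was under 0.05, with a bar at the list's median and a dashed line at the median of all genes. The 4 lists of glucose, vascular, mitochondrial and matrix targets have medians from -0.30 to -0.16, and the other lists sit at -0.07.

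The promoter windows of the target genes were searched in the same way as those of the members. Of the 57 listed targets 43 were matched to a window, and 28 of them (65.1%) held ACGTG in at least 1 window, against 21.8% of all 27025 genes with a window. Either motif was in 40 of the 43 (93.0%), against 46.7% of all genes. Taking for each gene its window richest in G and C, the targets had a median over genes of 66.0%, against 53.3% in all genes. Among genes with a window of 60% to 80% G and C, a range chosen after the data were seen, 23 of 33 targets (69.7%) and 28.3% of 8310 genes held ACGTG. Many of these genes are known as targets because such a motif was studied in them, so the shares are a description and not independent evidence.

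Markers of cell types were read on the same arrays. For the counts in this paragraph, 48.7% of all genes were lower. At an unadjusted p under 0.05, 3.3% of all genes were lower and 3.49% higher. Of 9 osteoblast markers all were higher with NU7441, 1 at an unadjusted p under 0.05. All 9 were also higher in every same-numbered pair, a pattern of 16% of all genes. Their mean log2 level ran from 10.05 to 10.78 in DMSO and from 10.54 to 11.24 in NU7441, so the groups overlapped. Their median difference of 0.53 was opposite in sign to that of the targets, and their part in the difference of the hypoxia genes was not tested. Endothelial markers, 4 of 7 lower, averaged 5.58 to 5.64 in DMSO and 5.50 to 5.67 in NU7441, with Esam at -0.20 (SE 0.08) the only one at an unadjusted p under 0.05. Macrophage markers, 4 of 6 lower, averaged 6.09 to 6.17 and 6.03 to 6.09, and adipocyte markers, 2 of 5 lower, 5.73 to 5.77 and 5.47 to 5.64. In the adipocyte list only Fabp4, a fatty acid carrier, had an unadjusted p under 0.05, with -0.99 (SE 0.19) at a dim level. Muscle markers, 1 of 5 lower, averaged 6.19 to 6.38 and 6.31 to 6.38. Chondrocyte markers, 3 of 5 higher, averaged 7.84 to 8.07 and 8.08 to 8.15, and Col10a1 at 0.47 (SE 0.19) and Matn1 at 0.23 (SE 0.08) were at an unadjusted p under 0.05. Array signal has no true 0, and the averages of the endothelial, macrophage and adipocyte lists lay below the arrays' medians of 6.38 to 6.42. Single markers lay above those medians, Cd68 (7.92 in DMSO, 7.69 in NU7441), Lyz2 (7.17 and 7.11) and Plin1 (6.48 and 6.61).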

How the data were processed

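RNA of 6 samples, 3 with DMSO and 3 with NU7441, was measured on Affymetrix arrays, with groups and replicate numbers from the labels. The authors deposited a table of log2 values by probe set. The log2 scale was read from the values; which background correction, summarisation and normalization were used is not given in the sources used here. RNA was purified on columns, per the labels' protocols. The deposited log2 values were used as they are. The arrays' medians lay between 6.38 and 6.42, and arrays correlated with each other at 0.992 to 0.996 over genes. The number of arrays limits the precision.

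Of 41345 probe sets the platform annotation gave 1 symbol for 23521, and 1814 with several and 16010 with none were not used for gene values. Keeping the probe set with the highest mean left 22180 genes, with no filter on level. The test was limma 3.58.1 in R 4.3.3 (group as the only term, two-sided, Benjamini-Hochberg over all genes, threshold 0.05). The replicate numbers 1 to 3 occur in both groups, and deviations from the group means correlated over genes at 0.149, 0.169 and 0.339 for the same number and at -0.25 to 0.09 for different ones. By a rule of over 0.1 in every pair they were treated as pairs in an alternative fit. No label states this pairing. Promoter sequences are RefSeq's.

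The members, the lists, the alternatives and the naming rule were chosen with earlier results of these data known. Named are all members, up to 4 genes of each list with the smallest p, the largest difference of opposite sign in each list, the 3 profiles nearest to Vegfa and to Hif1a, and genes that hold an extreme. Predicted genes were passed over. Fabp4, Gapdh, Ldha, Ddit4, Flt1, Cd68, Lyz2 and Plin1 were named after their values were seen. Further alternatives were median centring, quantile normalization, filters on dim genes, a variance trend with robust prior, averaged probe sets, array weights, and each array left out in turn. Pathway genes that no probe set named alone were left out, among them Aldoa, Eno1, Bnip3l and Ankrd37.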

Additional observations from a re-analysis of the deposited data

How the results depend on the processing

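The count of members called was 0 and that of all genes 0 under every setting run except the replicate block with intensity trend and robust prior, which called 4 members and 100 genes, and raised the list targets lower at an unadjusted p under 0.05 from 17 to 27, while all genes lower at that level went from 731 (3.3%) to 1478 (6.66%). With the replicate block alone 0 members and 0 genes were called at an adjusted p under 0.05. At an unadjusted p under 0.05, the block moved the lower members from 4 to 5, the lower list targets from 17 to 19 and all lower genes from 731 to 1033. Leaving out 1 array gave 3 to 5 such members and 10 to 18 such list targets, where 553 to 892 of all genes were lower at that level. The targets' median lay between -0.46 and -0.31 without 1 array. The median of factors and sensors was 0.019 with quantile normalization, -0.090 among the brighter 50 percent of genes, 0.012 with Egln1 and Egln3 counted as targets, and -0.065 to -0.0069 without 1 array. The vascular list's median was -0.35 among the brighter 50 percent. Without 1 array the list medians were -0.32 to -0.13 (vascular), -0.26 to -0.14 (mitochondrial), -0.094 to -0.040 (partners) and -0.16 to -0.038 (chromatin), the last also being -0.12 with array weights and -0.045 with quantile normalization. Signs turned for Egln2 with quantile normalization (0.019), Hif1an with median centring (-0.0056) and Hif1a in its dimmer probe set (0.077). They turned without 1 array for Epas1 (-0.027 to 0.20), Egln2 (-0.033 to 0.0062), Hif1an (-0.056 to 0.083), Vhl (-0.065 to 0.10), Car12 (-0.34 to 1.01) and Kdm4c (-0.0051 to 0.14). The cause was not tested. Signal over background was not measured, so how well dim genes such as Epas1, Hif3a, Adm and Slc16a3 report transcript is unknown.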
